A study of Rattus norvegicus with 9 samples.

Results

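A set of 10 genes of astrocyte transport and identity was followed in differentiating cultures of the oligodendrocyte lineage: Slc1a2, Slc1a3, Glul, Slc4a4, Aqp4, Gja1, Gfap, Aldh1l1, Acsbg1 and Clu. They were taken by gene symbol, with the entry of most reads where a symbol had several, and make up 10 of the 32623 Ensembl IDs measured. The cultures were wild-type rat brain oligodendrocyte precursor cells (OPCs), collected after 5 days in differentiation medium that was renewed every 2 days. Bulk RNA was sequenced from 3 basal libraries, 3 libraries with 1 µM bavisant and 3 with 10 µM bavisant, a histamine H3 receptor antagonist. Each group holds libraries numbered P11, P13 and P14. What P marks is not given in the titles, and no source used here calls the libraries separate cultures or animals, so the spread behind the p-values may be technical alone. The lower dose is 1 µM in the treatment label and 1 mM in a protocol text, and 1 µM is used here.

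Astrocytes clear glutamate from the space around synapses, buffer ions and acid, move water and share small molecules through gap junctions. Slc1a2 and Slc1a3 encode the glutamate transporters GLT-1 and GLAST, and Glul encodes glutamine synthetase, which turns glutamate into glutamine. Slc4a4 is a sodium bicarbonate cotransporter, Aqp4 a water channel and Gja1 the gap junction protein connexin 43. Gfap is the intermediate filament protein that marks astrocytes, Aldh1l1 a folate enzyme, Acsbg1 an acyl-CoA synthetase and Clu the secreted chaperone clusterin. Astrocytes and the oligodendrocyte lineage both arise from neural progenitors, and some of these genes, Glul and Clu among them, are also read in other cells.

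The libraries held 23.9 to 43.1 M estimated reads (M, 1e+06), of which the astrocyte genes took 0.351 to 0.514%. Markers of the labelled cell type were abundant, with a mean of 21630 TPM (transcript abundance, scaled by gene length and library) for the myelin gene Mbp, 562 for Gpr17, a gene of committed precursors, and 190.5 for the precursor gene Pdgfra. RNA of other cells was measured too: Aif1 of microglia averaged 170 TPM, Tubb3 of neurons 137 and Ttr of choroid plexus 485. Vascular and fibroblast genes differed: the endothelial gene Cldn5 had at most 3 reads in a library and the pericyte gene Rgs5 at most 5. The endothelial gene Cdh5, though, had 123 to 2056 reads, the mural gene Pdgfrb 233 to 720 and the fibroblast gene Col1a1 2119 to 23550. All 10 astrocyte genes had reads in all 9 libraries, from at least 440 for Aldh1l1 to at most 70201 for Gfap.

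Per gene length, Gfap and Glul were the most abundant of the astrocyte genes, at 908 ± 238 and 854 ± 110.5 TPM (mean ± SD over the 9 libraries). They ranked 119 and 134 among all IDs. Slc1a3 followed at 301 ± 119 TPM, then Clu at 188.5 ± 55.8 and Aqp4 at 137 ± 35.4. Gja1 averaged 122 ± 78.6 TPM and Acsbg1 96.0 ± 28.7, ahead of Slc1a2 at 58.9 ± 16.9. Slc4a4 at 34.0 ± 11.8 TPM and Aldh1l1 at 12.6 ± 3.67 closed the order. Gfap and Glul overlapped in their ranges, while the lowest Glul library (689 TPM) lay above the highest Slc1a3 library (479 TPM). From Slc1a3 down to Aldh1l1, the ranges of neighbours in this order overlapped. Slc1a3 was the more abundant glutamate transporter in TPM in each library, by 3.22 to 8.76 times over Slc1a2. The TPM of Slc1a2 rests on few reads, since Slc1a3 had 5.15 times as many reads per TPM. Between libraries, Gja1 varied most (5.45-fold between its lowest and highest library in CPM, reads scaled to a common library total but not by length) and Glul least (1.45-fold).

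**Figure D1:**
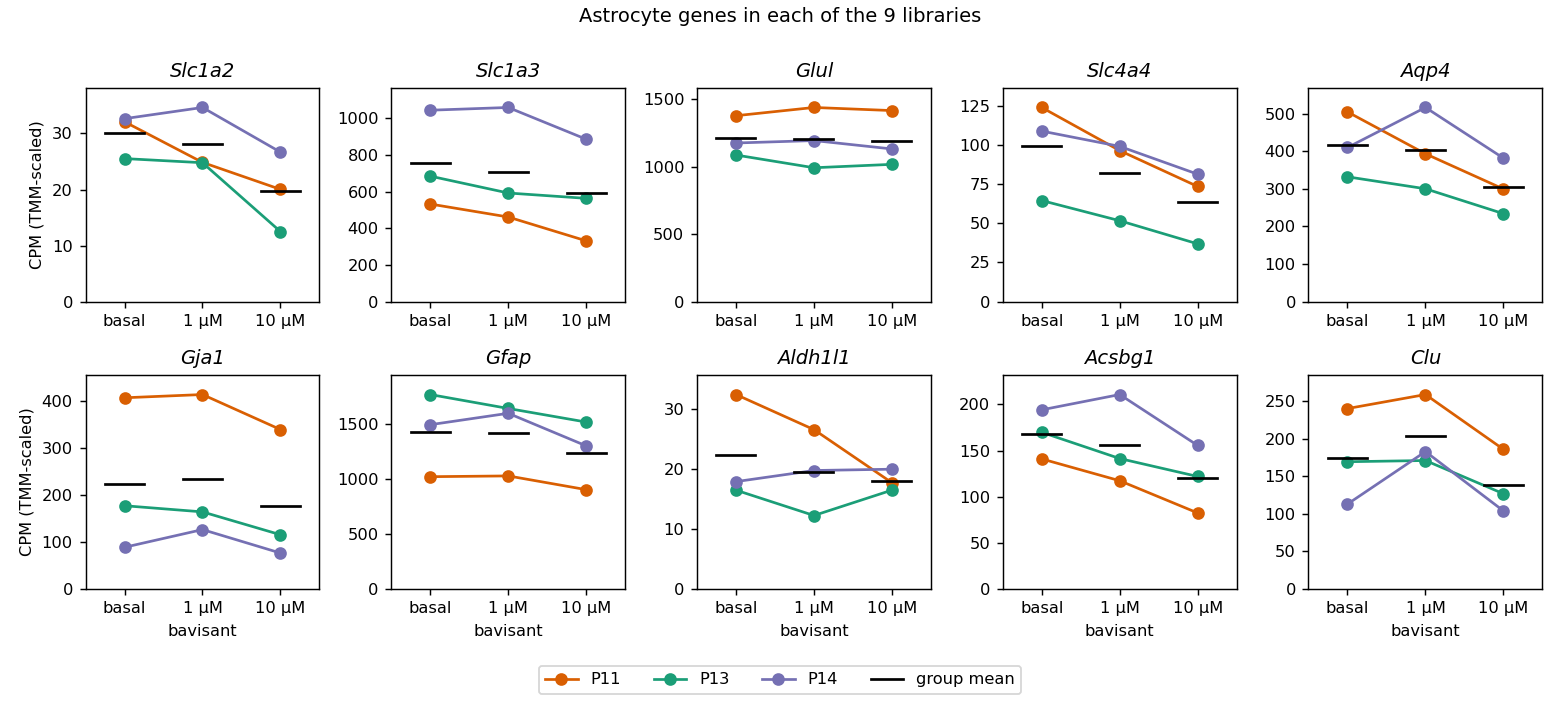
CPM of each astrocyte gene (vertical axis, from 0) in the basal, 1 µM and 10 µM libraries (horizontal axis), with a line per P number and a bar at each group mean. The lines of P11, P13 and P14 lie apart for most genes, and for 8 of the 10 genes the 10 µM point is the lowest on each line.

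At 10 µM bavisant, the bicarbonate and glutamate transporter genes and Acsbg1 passed the test as lower than in basal cultures when compared within P numbers. Slc4a4, Slc1a2, Acsbg1 and Slc1a3 fell in the edgeR quasi-likelihood fit that holds the P number as a block, and 0 of the 10 rose. Against these 4 of 10 genes, 2.64% of all 15321 tested genes fell and 1.32% rose in that fit at an adjusted p under 0.05 (3.96% in either direction). Of these 607 calls 66.7% were lower, against 84.3% of 834 under scaling by library totals and 82.9% of 502 by limma on TPM. The fit without the block called 0 of the 10 genes and 0% of all genes; 0 of the 10 and 808 of all genes had an unadjusted p under 0.05 there. DESeq2 without the block likewise called 0 of the 10 and called 64 genes in all. The median log2 fold change of the 10 genes was -0.38 with the block (all genes -0.01) and -0.34 without it. Within each P number, 8 of the 10 genes were lower at 10 µM than in basal cultures in all 3 P numbers, the exceptions being Glul and Aldh1l1, and 24.3% of all tested genes were. The groups themselves overlapped for all 10 genes, while 4.61% of tested genes had each 10 µM library below each basal one and 4.72% above. In bulk samples such as these, fewer cells of a type and less RNA per cell cannot be told apart.

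The calls at 10 µM depended on single libraries. Left out 1 at a time in the blocked fit, Slc4a4 stayed called in 7 of 9 runs and lost its call without basal P11 (adjusted p = 0.0547) or basal P13 (0.0673). Acsbg1 stayed called in 4 runs, and lost its call without basal P11 (0.094), basal P13 (0.131), 1 µM P11 (0.0532), 10 µM P13 (0.0545) or 10 µM P14 (0.0779). Slc1a2 stayed called only without 1 µM P13 (0.0452), and its adjusted p in the other 8 runs was 0.0583 to 0.189. Slc1a3 was called in 0 of the 9 runs (0.0506 to 0.168). All 4 genes were lower in each of these runs. Over all genes, the 607 calls of the blocked fit became 0 without basal P11, 1 without basal P13 and 10 without the 3 P11 libraries.

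The promoters of these 4 genes are shown because they were the genes called lower at 10 µM against basal in the blocked fit. Each sequence is the 250 bases before the first start listed by RefSeq (build GRCr8, 5′ to 3′ on the gene's strand), and capitals mark matches to the searched letters. Slc1a2 had 2 listed starts, Slc1a3 had 3, and Slc4a4 and Acsbg1 had 1 each. Only the window of the first start is shown and described for each gene. The windows are chr3:109459859-109460108 (plus strand) for Slc1a2, chr2:59557809-59558058 (minus) for Slc1a3, chr14:19468283-19468532 (minus) for Slc4a4 and chr8:63943279-63943528 (minus) for Acsbg1.
Slc1a2: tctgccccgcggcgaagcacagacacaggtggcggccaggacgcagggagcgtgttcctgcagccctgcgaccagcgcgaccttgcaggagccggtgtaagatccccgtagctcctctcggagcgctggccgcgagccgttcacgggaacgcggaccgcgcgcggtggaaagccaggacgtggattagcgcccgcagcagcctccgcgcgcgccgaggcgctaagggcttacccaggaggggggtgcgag
Slc1a3: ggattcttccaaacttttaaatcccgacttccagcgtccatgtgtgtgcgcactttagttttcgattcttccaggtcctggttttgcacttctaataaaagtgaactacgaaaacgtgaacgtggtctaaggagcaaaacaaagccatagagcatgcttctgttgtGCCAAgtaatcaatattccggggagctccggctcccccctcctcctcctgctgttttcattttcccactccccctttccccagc
Slc4a4: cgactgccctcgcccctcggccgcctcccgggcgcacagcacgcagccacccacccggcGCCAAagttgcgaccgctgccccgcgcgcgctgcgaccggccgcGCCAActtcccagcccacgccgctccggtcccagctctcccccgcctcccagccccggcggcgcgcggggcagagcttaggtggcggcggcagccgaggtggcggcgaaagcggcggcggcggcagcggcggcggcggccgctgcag
Acsbg1: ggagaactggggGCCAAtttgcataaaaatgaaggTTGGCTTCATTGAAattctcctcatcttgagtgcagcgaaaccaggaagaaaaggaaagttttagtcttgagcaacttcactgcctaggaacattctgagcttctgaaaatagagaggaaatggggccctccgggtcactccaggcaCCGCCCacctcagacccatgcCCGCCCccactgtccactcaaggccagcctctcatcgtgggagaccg
Both strands were searched for the GC box GGGCGG, the nuclear factor I core TTGGC, the STAT site TTCNNNGAA, the AP-1 site TGANTCA and the SOX core ACAAT. The nuclear factor I core stood 1 time before Slc1a3 (first base 84 bases before the start), 2 times before Slc4a4 (191 and 147) and 2 times before Acsbg1 (238 and 215). Acsbg1 also held a STAT match at 210, which directly follows the core at 215, and 2 GC boxes at 68 and 47. The Slc1a2 window held 0 matches of the 5. Of 33469 RefSeq windows of the same length, 40.3% held the nuclear factor I core, 30.5% the GC box, 30% the SOX core, 7.67% the STAT site and 6.34% the AP-1 site. A match of letters is a description of the window and not a measured site.

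Among the genes of glutamate handling, Slc1a2 read 32.1, 25.5 and 32.6 CPM in basal P11, P13 and P14, 24.8, 24.8 and 34.6 at 1 µM, and 20.02, 12.5 and 26.7 at 10 µM. The 10 µM library was the lowest of its P number in all 3, and 10 µM P14 still lay above basal P13. Its log2 fold change at 10 µM against basal was -0.65 ± 0.14 (SE) with the block (edgeR adjusted p = 0.046) and -0.61 without it (0.952). Slc1a3 read 532, 684 and 1043 CPM in basal P11, P13 and P14, 461, 592 and 1058 at 1 µM, and 331, 563 and 885 at 10 µM. P14 was the highest and P11 the lowest at each dose, so the groups overlapped widely. Slc1a3 fell by 0.40 ± 0.09 on the log2 scale with the block (adjusted p = 0.0479, edgeR). The drop was -0.68 in P11, -0.28 in P13 and -0.24 in P14. Glul read 1376, 1085 and 1174 CPM in the basal libraries and 1414, 1016 and 1130 at 10 µM. The 10 µM library was higher in P11 and lower in the other P numbers. The log2 fold change of Glul was -0.04, with a 95% interval of -0.15 to 0.08 in the blocked fit (adjusted p = 0.685), the smallest among the 10 genes.

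Among the genes of ion, water and gap junction transport, Slc4a4 read 124, 64.6 and 109 CPM in basal P11, P13 and P14. It read 96.5, 51.7 and 99.2 CPM at 1 µM and 73.6, 36.9 and 81.4 at 10 µM. Slc4a4 stepped down from basal to 1 µM to 10 µM in all 3 P numbers, alone among the 10 genes, and 2.49% of tested genes did so. It fell by 0.66 ± 0.07 on the log2 scale at 10 µM against basal (95% interval -0.82 to -0.49, adjusted p = 0.0114 with the block in edgeR). Aqp4 read 504, 332 and 410 CPM in the basal libraries, 393, 300 and 516 at 1 µM, and 299, 234 and 381 at 10 µM. Its 10 µM library was the lowest of each P number, yet Aqp4 did not pass the test (-0.46 ± 0.12, adjusted p = 0.0694 with the block). Gja1 read 407, 177 and 88.2 CPM in basal P11, P13 and P14, 414, 164 and 126 at 1 µM, and 339, 115 and 75.9 at 10 µM. P11 stood far above the other P numbers at each dose, and Gja1 did not pass at 10 µM against basal (-0.37 ± 0.11, adjusted p = 0.104 with the block).

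Among the filament, folate and lipid genes, Gfap read 1021, 1770 and 1495 CPM in basal P11, P13 and P14, 1028, 1643 and 1599 at 1 µM, and 903, 1519 and 1302 at 10 µM. The 10 µM library was the lowest of each P number, by a small step, and Gfap did not pass the test (-0.20 ± 0.05, adjusted p = 0.065 with the block). Aldh1l1 read 32.5, 16.5 and 17.9 CPM in the basal libraries and 17.7, 16.5 and 19.99 at 10 µM. Basal P11 stood apart from the other basal libraries, and the log2 fold change of -0.23 had a 95% interval of -0.68 to 0.22 (adjusted p = 0.515 with the block). Without 10 µM P11 the value of Aldh1l1 was 0.05. Acsbg1 read 141, 170 and 194 CPM in basal P11, P13 and P14, 117, 141 and 211 at 1 µM, and 82.2, 122 and 155.5 at 10 µM. The 10 µM library was the lowest of each P number, and 10 µM P14 lay among the basal values. Acsbg1 fell by 0.52 ± 0.09 on the log2 scale (adjusted p = 0.0255 with the block in edgeR). Clu read 240, 169 and 113 CPM in the basal libraries, 259, 171 and 183 at 1 µM, and 186, 127 and 104 at 10 µM. It was highest at 1 µM and lowest at 10 µM in each P number, and did not pass at 10 µM against basal (-0.31 ± 0.11, adjusted p = 0.154 with the block).

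**Figure D2:**
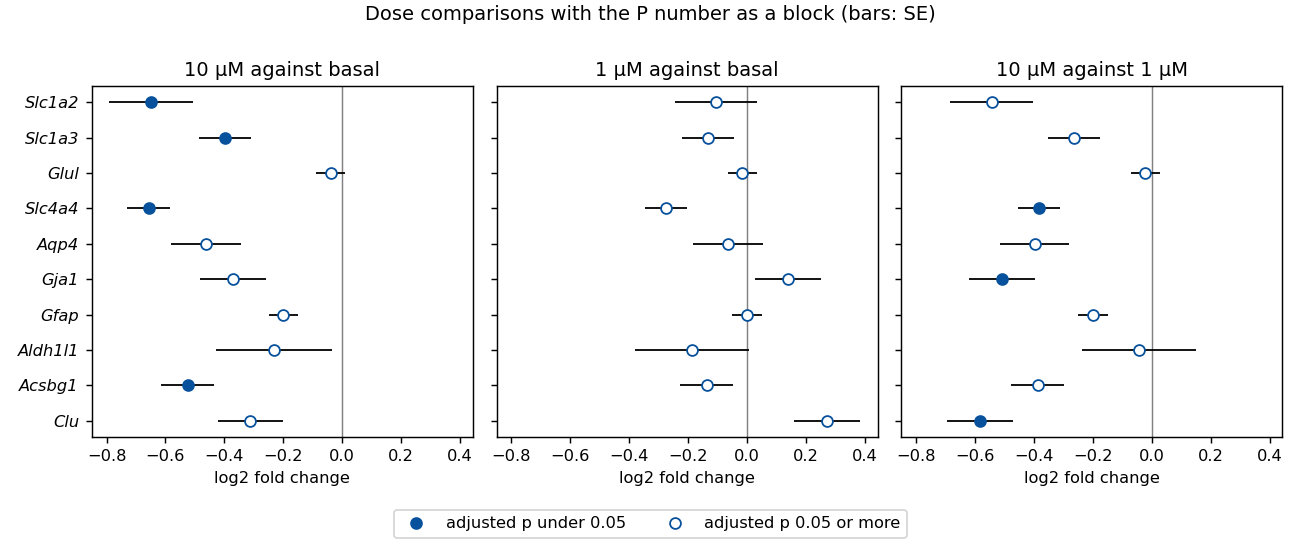
Log2 fold changes of the astrocyte genes (horizontal axis; bars, SE) between doses in the fit with the P number as a block, with filled points for an adjusted p under 0.05. At 10 µM all 10 points lie below 0 against basal and against 1 µM, with 4 and 3 of them filled, and at 1 µM against basal 0 are filled.

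At 1 µM against basal, 0 of the 10 genes passed the test in either fit, and 0% of all genes did. Of all genes, 582 had an unadjusted p under 0.05 with the block and 81 without it, and among the 10 genes 2 and 0 did. DESeq2 called 0 of the 10 genes in either fit, and 8 genes in all with the block. The median log2 fold change of the 10 genes was -0.09 with the block (all genes -0.0032). Slc4a4 was lower in all 3 P numbers (-0.27 ± 0.07) and Clu higher in all 3 (0.27 ± 0.11), both at an adjusted p of 1, and 14.3% and 13.7% of tested genes were lower and higher in all 3. The groups overlapped for all 10 genes, against 1.44% of tested genes that lay wholly lower and 1.48% wholly higher.

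Between the 2 doses, Slc4a4, Clu and Gja1 fell at 10 µM against 1 µM with the block, and 0 of the 10 genes rose. Of all tested genes, 3% fell and 1.31% rose in that comparison (4.3% in all); without the block 0 of the 10 and 0% of all genes passed, 717 of all genes and 0 of the 10 having an unadjusted p under 0.05. Clu had the largest difference of the 10, at -0.58 ± 0.11 (edgeR adjusted p = 0.0323). Gja1 differed by -0.51 ± 0.11 (0.0455) and Slc4a4 by -0.38 ± 0.07 (0.0309). Slc1a2 (-0.54 ± 0.14, adjusted p = 0.0711) and Acsbg1 (-0.39 ± 0.09, adjusted p = 0.0532) did not pass. The median was -0.385 (all genes -0.0045), and 8 of the 10 genes were lower in all 3 P numbers, against 21.9% of tested genes. The groups overlapped for all 10 genes, while 4.36% of tested genes lay wholly lower and 4.14% wholly higher.

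These 3 calls also rested on single libraries. Slc4a4 stayed called without any one basal library (0.0342 to 0.0451), and lost its call without any one of the 6 libraries compared (adjusted p = 0.0614 to 0.12). Clu stayed called in the same 3 runs (0.0341 to 0.0499) and lost its call in the other 6 (0.0526 to 0.124). Gja1 lost its call without basal P11 (0.0737), 1 µM P11 (0.0831), 1 µM P13 (0.101), 1 µM P14 (0.131), 10 µM P13 (0.146) or 10 µM P14 (0.151). All 3 genes were lower in each of the 9 runs. This comparison shares its 10 µM libraries with the comparison against basal, so the values of both are given side by side and not as separate support. Slc4a4 was -0.66 against basal and -0.38 against 1 µM, Clu -0.31 and -0.58, and Gja1 -0.37 and -0.51.

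For 9 of the 10 astrocyte genes the P number went with more of the spread than the dose did, and not in 1 direction. With dose and P number in the fit, 9 of the 10 genes differed between P11 and P13 (3 lower and 6 higher in P11), where 40.4% of all tested genes differed (20.7% lower and 19.7% higher). Between P11 and P14, 6 of the 10 differed, 3 each way (49.8% of all genes, 25.2% lower and 24.6% higher in P11). Between P14 and P13, 6 did, 1 lower and 5 higher in P14 (12.3% of all genes, 7.38% lower and 4.88% higher). The last count was 3 without basal P13 and 2 without 10 µM P14. Connexin 43 and the glutamate transporter GLAST went opposite ways. Gja1 was 4.05-fold higher in P11 than in P14 (log2 fold change 2.02 ± 0.12, edgeR adjusted p = 5.46e-06), and Slc1a3 was lower in P11 (-1.19 ± 0.09, adjusted p = 2.09e-05). The ratio of Gja1 to Slc1a3 in TPM was 1.01 to 1.37 in the P11 libraries, 0.268 to 0.365 in P13 and 0.109 to 0.153 in P14. The P numbers did not overlap in this ratio, whatever the dose. Gfap was lower in P11 than in P13 (-0.74 ± 0.05, adjusted p = 2.59e-05), and Clu was higher in P11 than in P14 (0.80). Slc4a4 was higher in P11 than in P13 (0.94) and higher in P14 than in P13 (0.95).

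**Figure D3:**
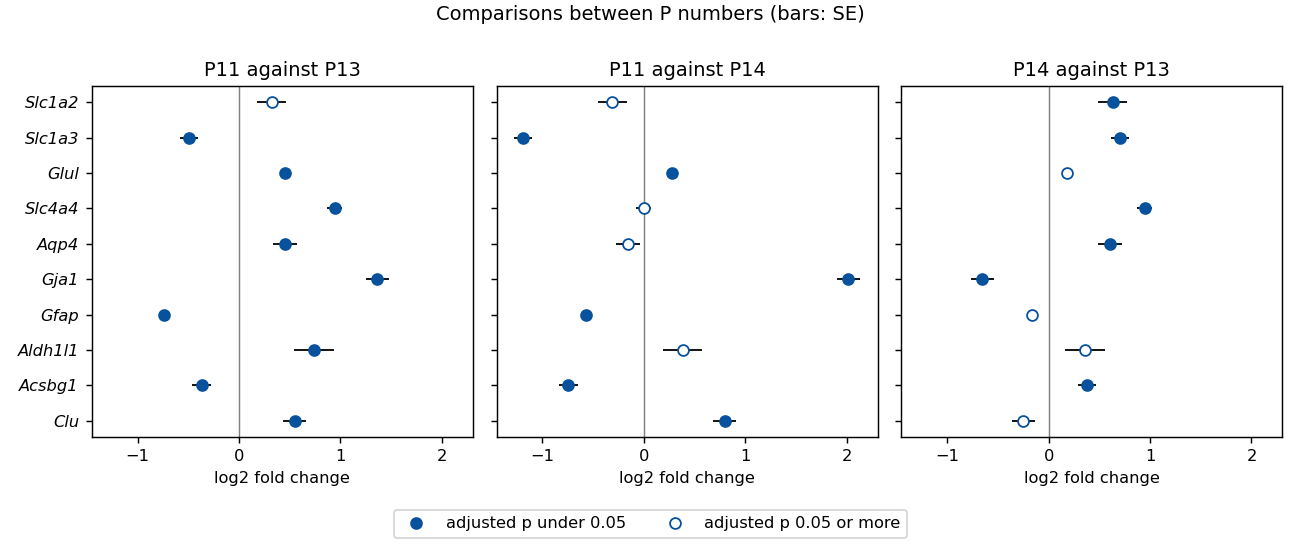
Log2 fold changes of the astrocyte genes (horizontal axis; bars, SE) between P numbers in the fit with dose and P number, with filled points for an adjusted p under 0.05. Gja1 and Slc1a3 lie farthest from 0, at 2.02 and -1.19 in P11 against P14.

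The share of each gene's spread that went with the P number or the dose differed among the 10 genes. Of the sum of squares of log2 CPM over the 9 libraries, the P number took 95.6% for Glul, 92.1% for Gja1 and 90.7% for Gfap. The dose took 47.7% for Slc1a2, more than the P number (38.6%), and this order held for Slc1a2 only among the 10. For Acsbg1 the dose took 32.8%, for Aqp4 33.2%, for Clu 29.9% and for Slc4a4 26.5%. Over all tested genes the medians were 62.2% for the P number and 13.5% for the dose.

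Beside the transporters, 5 of 26 tested genes of glutamate and GABA uptake and metabolism fell at 10 µM against basal with the block, and 0 rose (median -0.13). For this list and those below, 2.64% of all tested genes fell and 1.32% rose in that fit. Its 607 calls became 0 without basal P11, so the list calls were lost there too. The cystine-glutamate exchanger Slc7a11 fell by 0.91 ± 0.14 on the log2 scale (edgeR adjusted p = 0.0187). The GABA-making enzymes Gad1 (-0.60 ± 0.05, adjusted p = 0.0101) and Gad2 (-0.72 ± 0.12, adjusted p = 0.0236) fell, and both are also neuronal markers. The mitochondrial glutamate carrier Slc25a18 fell as well (-0.41), and it falls outside the naming rule and was chosen after its value was seen.

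Partners of the ion, water and gap junction genes did not fall as called genes: of 28 tested, 0 fell and 2 rose at 10 µM against basal with the block (median -0.12). The sodium-potassium-chloride cotransporter Slc12a2 was one of them (0.25 ± 0.05, adjusted p = 0.0355). The glial potassium channel Kcnj10 read 88.2 ± 7.77 CPM in basal libraries and 91.9 ± 18.1 at 10 µM (log2 fold change 0.05, adjusted p = 0.761). The astrocyte connexin Gjb6 (-0.45, adjusted p = 0.331) did not pass.

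Of 50 other astrocyte identity genes, 5 fell and 0 rose at 10 µM with the block (median -0.21). They were the glycogen phosphorylase Pygb (-0.34 ± 0.05, adjusted p = 0.0164), the growth factor receptor regulator Lrig1 (-0.33 ± 0.05, adjusted p = 0.0227), the BMP antagonist Chrdl1 (-0.67 ± 0.11, adjusted p = 0.0239), and Pla2g7 and Mertk, the last 2 outside the naming rule. Of the 50 genes, 37 lay below 0 in that fit. Several defining astrocyte genes were near 0 in log2 fold change: Aldoc 0.0075 (adjusted p = 0.971), the transcription factor Sox9 -0.01 (0.959), Fgfr3 -0.06 (0.705) and Apoe 0.07 (0.687). From basal to 10 µM, Sox9 fell in P11 (39.4 to 28 CPM) and rose in P13 (46.8 to 54.4) and P14 (82.7 to 92.6). S100b was at -0.27 (adjusted p = 0.29) and did not pass. The direction of Aldoc and Sox9 was the opposite without the block, and that of Kcnj10 and Apoe was the opposite in limma on TPM. The summed level of the identity list was 8844 to 10540.0 TPM in basal libraries and 7546 to 9680.0 TPM at 10 µM, overlapping.

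Of 38 genes tied to reactive astrocytes, 6 fell and 0 rose at 10 µM against basal with the block (median -0.32). At 10 µM against 1 µM, 13 fell (median -0.48), where 3% of all tested genes did. The galectin Lgals3 (-0.81 ± 0.09, adjusted p = 0.0114), the sphingosine phosphate receptor S1pr3 (-0.65 ± 0.08, adjusted p = 0.0115) and the glycosyltransferase Ggta1 (-0.53 ± 0.07, adjusted p = 0.0162) were among the 6. Lgals3 is also a gene of activated microglia. At 10 µM against 1 µM, 7 of 20 microglia and macrophage genes also fell with the block (median -0.37). So did 6 of 16 mural, fibroblast and endothelial genes (median -0.545), and 0 of either list rose. The filament gene Vim did not pass at 10 µM against basal (-0.27, edgeR adjusted p = 0.0836 with the block). At 1 µM against basal the reactive list had 0 calls and a median of 0.10. Of 18 radial glia and progenitor genes, 2 fell, Pdpn (-0.47 ± 0.05, adjusted p = 0.0101) and the adhesion molecule Vcam1 (-0.50 ± 0.09, adjusted p = 0.0263), and 0 rose (median -0.24).

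The lists around Acsbg1 and Aldh1l1 held fewer calls than the list around Clu. Of 25 genes of fatty acid activation and oxidation, 1 fell, Cpt1a, which brings long-chain fatty acids into mitochondria (-0.48 ± 0.08, adjusted p = 0.0223 with the block), and the median was 0.05. Of 21 one-carbon folate genes 0 were called by edgeR with the block (median 0.0026). Of 20 extracellular chaperone and apolipoprotein genes, 3 fell and 1 rose. The cholesterol exporter Abca1 (-0.90 ± 0.11, adjusted p = 0.012) and the protease inhibitor A2m (-0.47 ± 0.08, adjusted p = 0.025) were among those that fell.

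**Figure D4:**
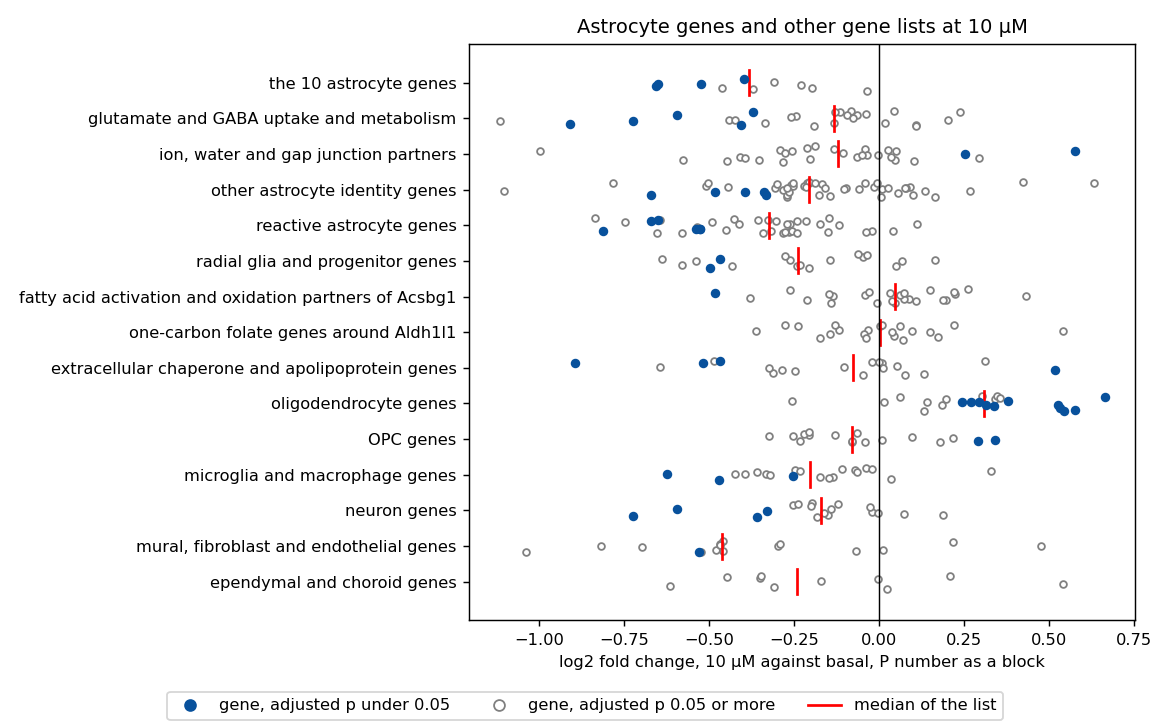
Log2 fold changes at 10 µM against basal (horizontal axis, P number as a block) for the genes of each list, with a mark at each list's median and filled points for an adjusted p under 0.05. The astrocyte genes have a median of -0.38, the mural, fibroblast and endothelial genes one of -0.46 and the oligodendrocyte genes one of 0.31.

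Markers of other cells moved at the same dose. Of 22 oligodendrocyte genes, 11 rose and 0 fell at 10 µM against basal with the block (median 0.31), among them Mbp (0.54 ± 0.07, adjusted p = 0.0125), Cnp (0.34 ± 0.05, adjusted p = 0.0169) and Aspa (0.38 ± 0.05, adjusted p = 0.0164). Their summed level was 36890.0 to 41960.0 TPM in basal libraries and 48620.0 to 54250.0 TPM at 10 µM, without overlap. Of 20 microglia and macrophage genes 3 fell, Mrc1 (-0.62), Itgam (-0.47) and Cd68 (-0.26), and 18 lay below 0 (median -0.205). Their summed level was 1776 to 2272 TPM in basal libraries and 1345 to 1874 TPM at 10 µM. Of 18 neuron genes 4 fell (median -0.17), Gad1 and Gad2 among them, with a summed level of 1010.0 to 1551 TPM in basal libraries and 961 to 1357 TPM at 10 µM. Of 17 OPC genes 2 rose (median -0.08), and Pdgfra (0.18, adjusted p = 0.0926) and Cspg4 (0.22, adjusted p = 0.0676) did not pass. The mural, fibroblast and endothelial list had 1 call, Eng (-0.53, adjusted p = 0.0164), of 16 genes, with a median of -0.46 and 13 genes below 0. The ependymal and choroid list had 0 calls of 10 genes (median -0.24). A lower median at 10 µM was thus not particular to the astrocyte genes. The part of these other cells in the values of the astrocyte genes was not tested.

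The genes whose profile over the 9 libraries was most like the mean of the 10 astrocyte genes were Cpt1a (Pearson r = 0.98), Igdcc4 (0.972), Ptprf (0.971), Ppm1f (0.967) and Cacna1g (0.951), of 11666 genes compared. The 10 genes themselves had r with that mean from -0.154 for Gfap to 0.969 for Aqp4, so they did not share 1 profile. After each P number's mean was subtracted, their r lay between 0.479 for Glul and 0.974 for Acsbg1, and the most alike others were Lamb2 (0.999), Klhl23 (0.993), Selenop (0.992), Pdgfrb (0.987) and Wnk2 (0.986). These values are descriptions over libraries that share P numbers and doses. With the block, the log2 fold changes of these other genes at 10 µM against basal lay between -0.52 for Pdgfrb and -0.17 for Klhl23. They were chosen for their likeness to the 10 genes in the same libraries, so these values are not separate support.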

How the data were processed

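RNA was extracted, made into stranded mRNA libraries and read in pairs, per the labels' protocols. FastQC, Trimmomatic, DRAGEN and Picard with build rn6 are named, per the submitters' processing notes; neither counter nor annotation is named there. The authors deposited estimated counts per gene, of which 92.4 to 93% were whole numbers, and TPM values, which are scaled by gene length and library. Of 32623 IDs, 399 had no symbol. Estimated counts were rounded and tested with edgeR 4.0.16 (R 4.3.3; quasi-likelihood F test, TMM, filterByExpr with a minimum of 10 reads and a total of 15) on all 9 libraries, and p-values were adjusted by Benjamini-Hochberg over 15321 genes. Genes under an adjusted p of 0.05 were called. The SE is the log2 fold change over the square root of F. CPM are TMM-scaled. Levels between genes were compared in TPM.

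The P numbers pair the libraries by the rule that each same-number pair correlates above 0.1 after group means are removed: the 9 pairs had r of 0.319 to 0.772, and 18 pairs of other numbers -0.708 to 0.193. The fit that blocks on the P number is therefore given beside the one without it. Libraries of 1 group differed by more than counting noise (chi-square over its degrees of freedom, 24.3 to 119). The steps were tested on data simulated with an additive P number effect, as the blocked fit assumes. Such data cannot show whether these libraries meet that assumption. The genes and lists were chosen with earlier results of these data known. Named genes are the 10 genes, up to 3 genes of each of 14 lists with the smallest blocked p at 10 µM against basal, a core of 13 glial genes and the 5 most alike genes by each of 2 profiles (log2 CPM, prior count 2); some genes so taken are not reported here. Alternatives were DESeq2 1.42.0, limma 3.58.1 on log2(TPM + 1) or log2(TPM + 0.1) with a filter of TPM 1 in 3 libraries, other scalings and filters, the groups compared alone, the block, and each library left out. A promoter was found for 9 of the 10 genes.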

Additional observations from a re-analysis of the deposited data

How the results depend on the processing

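Without the P number as a block, 0 of the 10 astrocyte genes passed between doses under each scaling, tool, filter and left-out library tried. With the replicate block, the number called lower at 10 µM against basal was 4, and it was 4 with DESeq2 size factors, 6 with library totals, 8 in DESeq2, 4 in limma on log2(TPM + 1) and 4 for genes with a mean of at least 100 reads. At 10 µM against 1 µM the same settings gave 3, 3, 6, 8, 4 and 4. Of 15321 tested genes (14371 in limma, 12360 with the filter of 100 reads), these 6 settings called 405, 410, 703, 640, 416 and 511 lower against basal and 459, 455, 809, 674, 383 and 519 lower against 1 µM. Leaving out each library in turn, over the fits with and without the block, gave 0 to 3 against basal and 0 to 5 against 1 µM. Without the 3 P11 libraries the blocked fit called 0 of the 10 in both comparisons. Between P14 and P13, leaving out 1 library gave 2 to 6 called genes. The cause of these differences was not tested.

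The log2 fold changes of the 10 genes kept their direction in 321 of 330 values under other settings at 10 µM against basal, 317 of 330 at 10 µM against 1 µM and 292 of 330 at 1 µM against basal. Between P11 and P13 and between P14 and P13 they kept it in all 130 values each. Leaving out each library in turn turned some directions. For Gja1 at 10 µM against 1 µM, called with the block, this happened in the fit without the block (without 1 µM P11), while with the block its range was -0.597 to -0.357. At 10 µM against basal the range was -0.176 to 0.0715 for Glul, -1.23 to 0.42 for Gja1 and -0.478 to 0.072 for Aldh1l1. At 1 µM against basal it was -0.278 to 0.0158 for Slc1a2, -0.52 to 0.21 for Slc1a3, -0.15 to 0.12 for Glul, -0.26 to 0.13 for Aqp4 and -0.63 to 0.82 for Gja1. There it was also -0.20 to 0.19 for Gfap, -0.47 to 0.185 for Aldh1l1, -0.382 to 0.0686 for Acsbg1 and -0.0037 to 0.53 for Clu. At 10 µM against 1 µM it was -0.65 to 0.17 for Slc1a3, -0.17 to 0.13 for Glul, -1.30 to 0.29 for Gja1 and -0.36 to 0.235 for Aldh1l1. Slc4a4 between P11 and P14 ranged from -0.0942 to 0.0829, and was 0.0056 with DESeq2 size factors and 0.0054 in DESeq2. In the blocked fit without the 3 P11 libraries Aldh1l1 was 0.0944 against basal and 0.22 against 1 µM, and at 1 µM against basal Slc1a2 was 0.0255, Aqp4 0.0976 and Gfap 0.0019. Gfap at 1 µM against basal was 0.00031 with the block, 0.0013 with library totals, 0.0104 with both and 0.000851 with the block and a mean of at least 100 reads, and Glul was 0.0037 with library totals.

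For the companion genes at 10 µM against basal, left-out libraries gave -0.0886 to 0.197 for Kcnj10, -0.58 to 0.21 for S100b, -0.14 to 0.12 for Aldoc, -0.45 to 0.435 for Sox9, -1.88 to 1.07 for Gjb6 and -0.28 to 0.10 for Fgfr3. They gave -0.0277 to 0.168 for Apoe, -0.10 to 0.54 for Pdgfra, -0.703 to 0.0392 for Lrig1 and -0.98 to 0.0037 for A2m. On limma with log2(TPM + 1), with or without the block, Kcnj10 was -0.0245, Sox9 -0.138 and Apoe -0.0415, and with log2(TPM + 0.1) they were -0.0249, -0.145 and -0.0415. Aldoc, below 0 without the block, was 0.0075 with it, 0.0072 with DESeq2 size factors or DESeq2, 0.00035 at a mean of at least 100 reads and 0.16 without the P11 libraries. Sox9, above 0 without the block, was -0.015 with it and with DESeq2 size factors, -0.0627 with library totals, -0.0232 in DESeq2 and -0.022 at a mean of at least 100 reads. Without the P11 libraries Kcnj10 was -0.0050 and Fgfr3 0.0615.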
